A study of Comephorus dybowskii and Comephorus baikalensis and Batrachocottus nikolskii with 4 samples.

Results

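The lipoprotein and egg protein transcripts described here were 7 of the 792 Trinity gene identifiers in the authors' normalized muscle tables. They comprised 3 identifiers titled apolipoprotein Eb (*APOEb*), 1 titled apolipoprotein A-II (*APOA2*), 1 titled vitellogenin-2, 1 titled zona pellucida sperm-binding protein 4 and 1 titled zona pellucida sperm-binding protein 3. The first 6 were taken as a fixed list and the last was added because its title matched. Skeletal muscle came from wild-caught, sexually mature fish of 4 Lake Baikal sculpins, *Comephorus dybowski* and *Comephorus baicalensis*, which live in the water column, and *Batrachocottus nikolskii* and *Batrachocottus multiradiatus*, which live on the lake floor. Each species was sequenced as 1 library made from pooled RNA. The labels give 15 individuals for each pool and the study's methods a larger number, and the sex of the fish is not given in the sources used here.

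Apolipoproteins coat the particles that carry lipids in blood. Apolipoprotein E is made mainly by the liver and by macrophages and is the ligand by which cells take up such particles through receptors of the low-density lipoprotein family. Apolipoprotein A-II is a protein of high-density lipoprotein. Vitellogenin is the yolk precursor that the liver of egg-laying vertebrates releases under oestrogen for uptake by growing oocytes. Zona pellucida proteins build the coat of the egg, and in bony fishes they are made in the ovary, the liver or both. Female *Comephorus* bear live larvae, and the other Baikal sculpins lay eggs. None of these proteins is a component of the contractile apparatus of muscle.

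The read estimates of the unnormalized tables added up to between 54508410 and 59156409 per library. These tables listed 15221 identifiers in all and 4755 for both genera, and of the 7 identifiers they listed 4 for *Comephorus*, 4 for *Batrachocottus* and 2 for both. The normalized values are CPM, read counts scaled to an adjusted library size. At these sizes 3 reads, the upper limit that a count of 0 allows, are worth 0.0441 to 0.0567 CPM. The 41 identifiers with a title for parvalbumin, myosin, troponin, muscle creatine kinase or skeletal actin summed to 205541 CPM in *C. dybowski* and 220756 CPM in *C. baicalensis*, against 97433 CPM in *B. nikolskii* and 163363 CPM in *B. multiradiatus*. The labelled tissue was thus evident in each library, although only 10 of the 41 bear a single title. All 792 identifiers had been selected by the authors for differing between species in these same libraries, so large differences among the 7 were in part a condition of their being in the table. Intervals given below are exact 95% intervals from read numbers and cover counting error only. With 1 library per species they do not measure the spread among fish. A level in a pool cannot tell a transcript present in many fish from one abundant in a few, and fewer cells of a type cannot be told apart from less RNA per cell.

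Apolipoprotein Eb was carried by a different identifier in 3 of the 4 species. TRINITY_DN45_c1_g1 (hereafter without the prefix) was at 4.23 CPM in *C. dybowski* and 161 CPM in *C. baicalensis*, against 1.17 CPM in *B. nikolskii* and 0.978 CPM in *B. multiradiatus*. It was thus high in *C. baicalensis* alone, on 8538 reads, and was 38.2-fold lower in *C. dybowski* (interval 33.6 to 43.7), on 235 reads. TRINITY_DN1401_c0_g1 was at 32.9 CPM in *C. dybowski* and 1.21 CPM in *C. baicalensis*, against 0.862 CPM in *B. nikolskii* and 3.09 CPM in *B. multiradiatus*. Here *C. dybowski* stood above the other libraries, 27.3-fold above *C. baicalensis* (interval 21.2 to 35.5) on 1831 and 64 reads. TRINITY_DN4239_c0_g3 was at 0 CPM in *C. dybowski* and 0.019 CPM in *C. baicalensis*, against 2.28 CPM in *B. nikolskii* and 122 CPM in *B. multiradiatus*. The *B. nikolskii* level was 53.6-fold lower than that of *B. multiradiatus* (interval 45.7 to 63.3), on 155 and 6968 reads. In *Comephorus* this identifier had 0 and 1 reads, so no fold is given between the pelagic species. With 3 reads as its upper limit, *C. dybowski* was at least 2264-fold lower than *B. multiradiatus*.

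**Figure D1:**
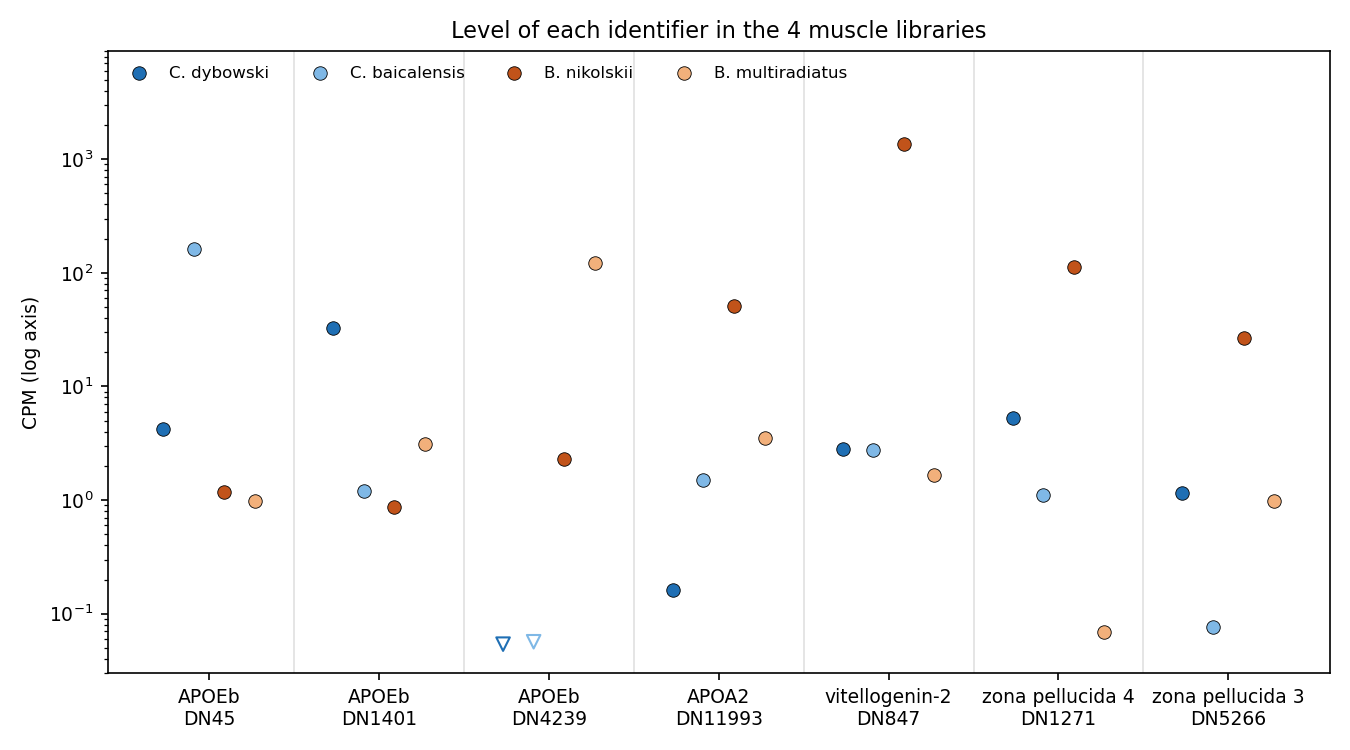
CPM on a log axis of the 7 identifiers in the 4 muscle libraries, 1 point per library, with the *Comephorus* species (blue) left of the *Batrachocottus* species (orange). Open triangles mark a value at or under the limit of 3 reads, drawn at that limit, as for APOEb DN4239 in both *Comephorus* libraries. In each column 1 point stands well above the other 3, and this point is *B. nikolskii* for 4 of the 7 identifiers.

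Summed over the 3 identifiers, *APOEb* was at 37.2 CPM in *C. dybowski* and 163 CPM in *C. baicalensis*, against 4.31 CPM in *B. nikolskii* and 126 CPM in *B. multiradiatus*. From high to low the sums ran *C. baicalensis*, *B. multiradiatus*, *C. dybowski*, *B. nikolskii*, with a species of each genus near either end. DN1401_c0_g1 held 88.6% of the sum in *C. dybowski*, and DN45_c1_g1 held 99.3% of it in *C. baicalensis*. DN4239_c0_g3 held 52.9% of it in *B. nikolskii* and 96.8% in *B. multiradiatus*. Neighbours in this order differed by more than counting error. The sum in *C. baicalensis* was 1.29-fold that in *B. multiradiatus* (interval 1.25 to 1.33), the sum in *C. dybowski* was 3.40-fold lower than in *B. multiradiatus* (interval 3.23 to 3.57), and it was 8.62-fold that in *B. nikolskii* (interval 7.63 to 9.78). Within the genera, the summed level was 4.38-fold lower in *C. dybowski* than in *C. baicalensis* (interval 4.17 to 4.60) and 29.3-fold lower in *B. nikolskii* than in *B. multiradiatus* (interval 26.1 to 33.1). Whether the 3 identifiers are contigs of 1 gene assembled apart in different species, alleles or separate gene copies was not tested. The sums hold only identifiers that the authors selected for differing between species, and 657 of those 792 had a title. Any other *APOEb* contig is left out, so the sums are not the total *APOEb* level of a species.

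**Figure D2:**
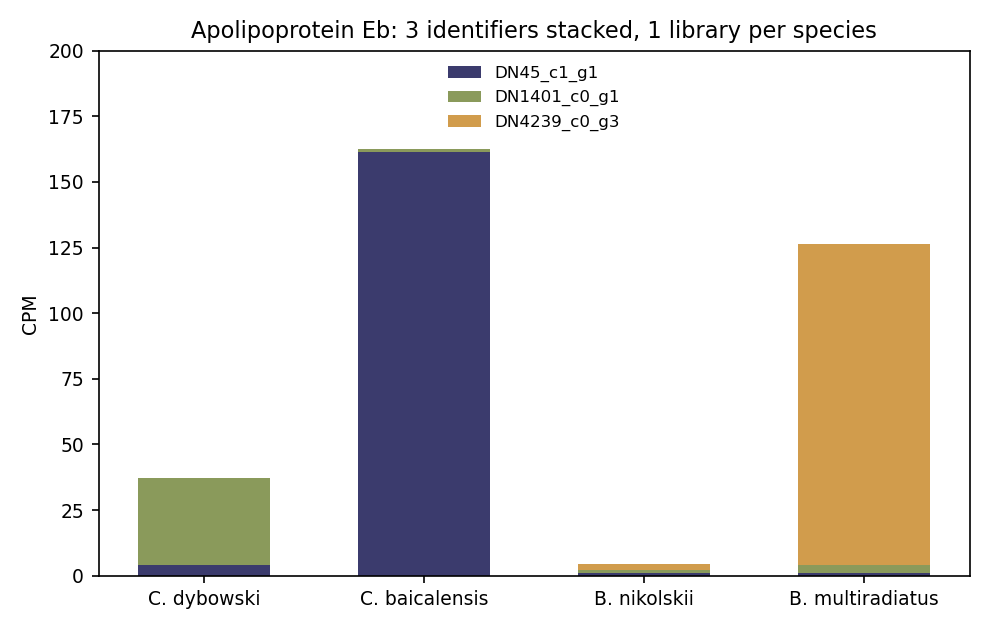
CPM of the 3 apolipoprotein Eb identifiers stacked for each species, from left to right *C. dybowski* and *C. baicalensis*, then *B. nikolskii* and *B. multiradiatus*, 1 library per bar and no error bars because each species had 1 library. The bars reach 37.2, 163, 4.31 and 126 CPM, and a different colour fills most of the bar in *C. dybowski*, *C. baicalensis* and *B. multiradiatus*.

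Transcripts of macrophages, a known source of apolipoprotein E, were followed by 6 identifiers titled CD74 (the invariant chain of class II antigen presentation), macrophage mannose receptor 1 or cathepsin. They summed to 190.0 CPM in *C. dybowski* and 87.1 CPM in *C. baicalensis*, against 269 CPM in *B. nikolskii* and 38.8 CPM in *B. multiradiatus*. The summed *APOEb* level was higher in *C. baicalensis* than in *C. dybowski* and in *B. multiradiatus* than in *B. nikolskii*, and the macrophage sum ran the other way in both pairs. The part of macrophages in the *APOEb* values was not tested. Of the 6 identifiers, 1 was at least 4-fold higher in *C. dybowski* than in *C. baicalensis*, against 12.4% of all 792, and 2 in *B. nikolskii* than in *B. multiradiatus*, against 17.0% of all. These 2 bear several titles each, and 1 of them, DN5979_c0_g1, also counts as a keratin. Single identifiers of the list went against the sums, among them DN7516_c0_g1 at -0.72 between the *Comephorus* species and DN10061_c0_g2 at -1.21 and DN986_c0_g2 at -0.17 between the *Batrachocottus* species on the log2(CPM + 1) scale. The CD74 identifier with the highest mean, DN1556_c0_g1 (also titled RRP5 homolog and dimethylglycine dehydrogenase), had 7.98 CPM in *C. dybowski* and 22.7 CPM in *C. baicalensis*, against 191 CPM in *B. nikolskii* and 19.8 CPM in *B. multiradiatus*. DN54_c0_g1, titled CD74 alone, had the largest genus difference of the list, with 55.5 and 26.4 CPM in *Comephorus* against 3.24 and 1.16 CPM in *Batrachocottus*.

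Apolipoprotein A-II was high in *B. nikolskii*. TRINITY_DN11993_c1_g1 was at 0.162 CPM in *C. dybowski* and 1.50 CPM in *C. baicalensis*, against 50.9 CPM in *B. nikolskii* and 3.49 CPM in *B. multiradiatus*. The level in *B. nikolskii* was 14.6-fold that in *B. multiradiatus* (interval 12.7 to 16.9), on 3464 and 199 reads. The *C. dybowski* level was 9.24-fold lower than that of *C. baicalensis* (interval 4.62 to 20.9), but this rested on about 9 and 79 reads. The *APOA2* identifier and the sum of the 3 *APOEb* identifiers thus differed in opposite directions between the benthic species, the first being higher and the second lower in *B. nikolskii*.

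Vitellogenin-2 gave the largest difference among the 7 identifiers on the log2(CPM + 1) scale. TRINITY_DN847_c0_g1 was at 2.84 CPM in *C. dybowski* and 2.76 CPM in *C. baicalensis*, against 1356 CPM in *B. nikolskii* and 1.68 CPM in *B. multiradiatus*. In *B. nikolskii* it took 92216 reads, 0.169% of the 54508410 read estimates listed for that library (95% Wilson interval 0.168 to 0.170%). The CPM value is instead scaled to the larger adjusted library size of 68019677 reads. The identifier ranked 91 of the 10189 identifiers listed for that species. The other libraries held 158, 146 and 96 reads of it, in the order *C. dybowski*, *C. baicalensis* and *B. multiradiatus*. *B. nikolskii* was 807-fold above *B. multiradiatus* (interval 660 to 995), and 477-fold above the next highest library, *C. dybowski* (interval 408 to 561). Its ratio within *Batrachocottus* ranked 4 in that direction among the 10189 identifiers listed for the genus, which leave out identifiers low in 1 of its species, and its log2(CPM + 1) difference ranked 5 among the 792. Both *Comephorus* species were at a like level, with a ratio of 1.03 (interval 0.817 to 1.30). The identifier also bears the title endosulfine alpha b, a small phosphoprotein that inhibits protein phosphatase 2A. The tables give 1 value for both, so reads of a yolk precursor and of endosulfine cannot be told apart here. No other titled identifier of the 792 bore either title.

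The egg coat identifiers were also highest in *B. nikolskii*. TRINITY_DN1271_c0_g2, titled zona pellucida sperm-binding protein 4, was at 5.31 CPM in *C. dybowski* and 1.11 CPM in *C. baicalensis*, against 113 CPM in *B. nikolskii* and 0.069 CPM in *B. multiradiatus*. The *B. nikolskii* level was 21.3-fold above that of *C. dybowski* (interval 18.9 to 24.0). The ratio to *B. multiradiatus* was 1637 with a wide interval of 629 to 5915, because only about 4 reads lay behind the lower value. Among the pelagic species *C. dybowski* was 4.80-fold above *C. baicalensis* (interval 3.59 to 6.40), on 295 and 59 reads. TRINITY_DN5266_c0_g1, titled zona pellucida sperm-binding protein 3, was at 1.16 CPM in *C. dybowski* and 0.076 CPM in *C. baicalensis*, against 26.9 CPM in *B. nikolskii* and 0.984 CPM in *B. multiradiatus*. It was 27.3-fold higher in *B. nikolskii* than in *B. multiradiatus* (interval 21.0 to 36.4) and 15.3-fold higher in *C. dybowski* than in *C. baicalensis* (interval 5.76 to 58.4), the second ratio on about 65 and 4 reads. Each of them bears a second title, synaptogyrin-2b (a protein of vesicle membranes) for DN1271_c0_g2 and chymotrypsin B (a digestive protease of the exocrine pancreas) for DN5266_c0_g1, and the reads of both titles cannot be told apart. DN5266_c0_g1 was also the 1 identifier that matched the exocrine pancreas list.

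In the unnormalized tables an identifier appeared for a genus if each of its species reached a low level, which left out high values of the egg coat identifiers. DN1271_c0_g2 was listed for *Comephorus*, with 295 and 59 reads, and was not listed for *Batrachocottus*, where the normalized tables gave it 113 CPM in *B. nikolskii*. DN5266_c0_g1 was listed for neither genus. Absence from these tables was therefore not a level of 0.

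Each of the 7 identifiers was at least 4-fold above every other library in exactly 1 library, on log2(CPM + 1). This held for 35.7% of all 792 identifiers. *B. nikolskii* was the high library for 4 of the 7 (*APOA2*, vitellogenin-2 and both zona pellucida identifiers), against 12.1% of all. *C. dybowski*, *C. baicalensis* and *B. multiradiatus* were each the high library for 1 *APOEb* identifier, against 8.33%, 7.45% and 7.83% of all. The high library held between 86.5% (DN1401_c0_g1) and 99.5% (DN847_c0_g1) of the summed CPM of the 4 libraries. The smallest step to the next library was 3.05 on the log2(CPM + 1) scale (DN1401_c0_g1) and the largest 8.46 (DN847_c0_g1).

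To compare species within a genus, differences of at least 4-fold on log2(CPM + 1) were counted, without a test since each species had 1 library. Between *C. dybowski* and *C. baicalensis*, 2 of the 7 identifiers passed, against 26.5% of all 792. They were *APOEb* DN1401_c0_g1 at 3.94, higher in *C. dybowski* as were 12.4% of all, and *APOEb* DN45_c1_g1 at -4.96, lower there as were 14.1% of all, and the other 5 lay between -1.10 and 1.58. Between *B. nikolskii* and *B. multiradiatus*, 5 of the 7 passed, against 30.2% of all. Vitellogenin-2 (8.98), zona pellucida 4 (6.74), zona pellucida 3 (3.81) and *APOA2* (3.53) were higher in *B. nikolskii*, as were 17.0% of all identifiers. *APOEb* DN4239_c0_g3 (-5.23) was lower in *B. nikolskii*, as were 13.1% of all. The *Comephorus* count depends on the pseudocount. It was 5 with 0.1 in place of 1, when *APOA2* and both zona pellucida identifiers, low in this genus, also passed, and 1 with 10, when DN1401_c0_g1 did not. The share of all 792 was worked out for a pseudocount of 1 only, so these 2 counts have no background to be set against.

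**Figure D3:**
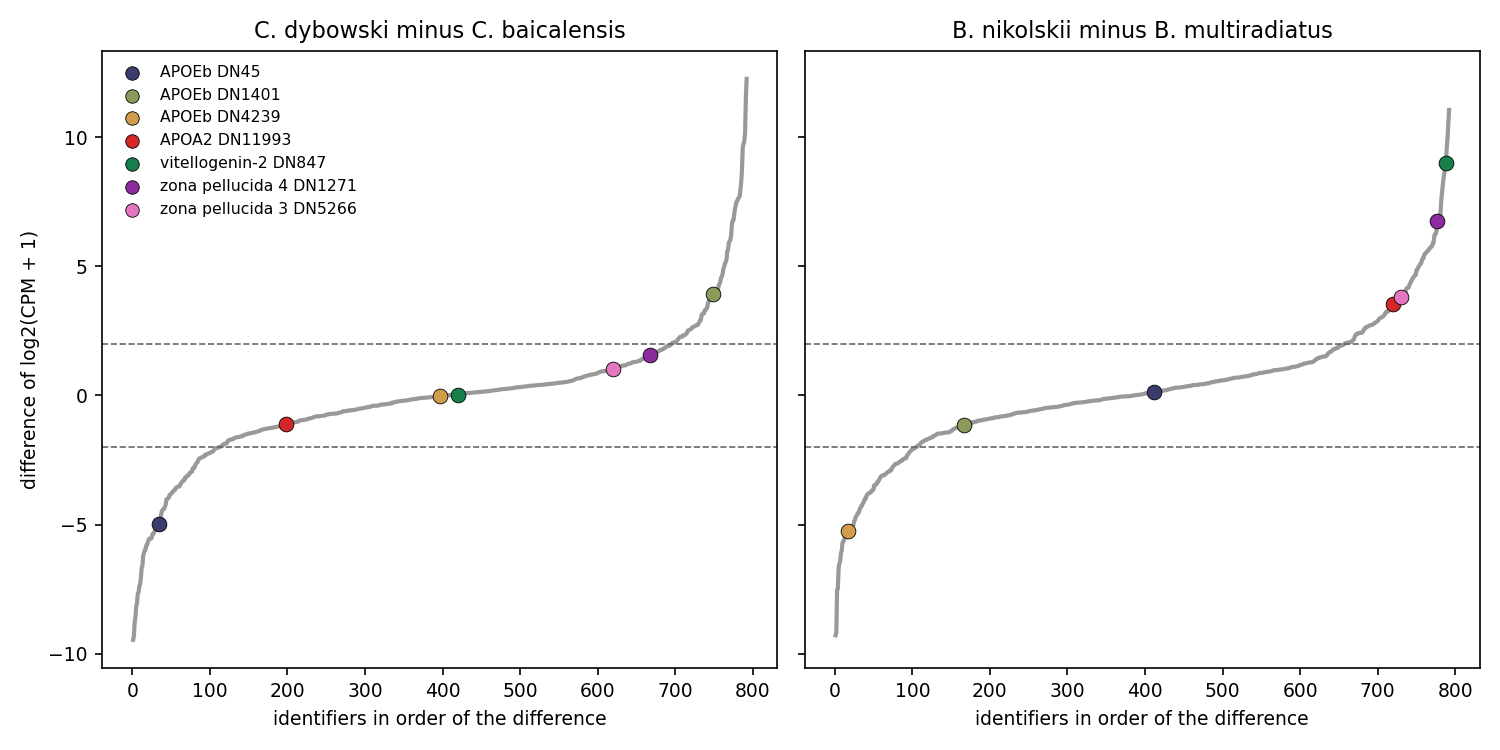
Difference of log2(CPM + 1) between the species of a genus for all 792 identifiers in order of size (grey line), *C. dybowski* minus *C. baicalensis* on the left and *B. nikolskii* minus *B. multiradiatus* on the right, with the 7 identifiers as coloured points and 4-fold differences as dashed lines. On the left only 2 *APOEb* identifiers lie outside the dashed lines, and on the right 5 do, from -5.23 (*APOEb* DN4239) to 8.98 (vitellogenin-2).

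The genus contrast, which the study takes as the comparison of pelagic and benthic habit, used the species of each genus as its 2 samples, so genus, habitat and ancestry cannot be told apart. On log2(CPM + 1), limma called 0 of the 7 identifiers at an adjusted p under 0.05 and 0 at an unadjusted p under 0.05, whereas it called 54.0% of all 792 (30.1% higher in *Comephorus* and 24.0% lower). The adjusted p of the 7 ran from 0.135 (*APOEb* DN4239_c0_g3) to 0.583 (zona pellucida 4). The difference between the genera was 3.81 (SE 1.90) for *APOEb* DN45_c1_g1, -4.32 (SE 1.99) for *APOEb* DN4239_c0_g3, -3.16 (SE 1.50) for *APOA2* and -3.99 (SE 3.27) for vitellogenin-2. It was 1.65 (SE 1.62) for *APOEb* DN1401_c0_g1, -1.60 (SE 2.56) for zona pellucida 4 and -2.29 (SE 1.57) for zona pellucida 3. On reads recovered from the normalized values, edgeR called 1 of the 7, *APOEb* DN4239_c0_g3 (adjusted p = 0.0495, with a range of 0.0495 to 0.295 over its 9 alternatives), along with 30.6% of all. Leaving out each library in turn moved the differences to between 1.34 and 6.29 (DN45_c1_g1), -6.93 and -1.70 (DN4239_c0_g3), -4.93 and -1.40 (*APOA2*) and -4.19 and -0.38 (zona pellucida 3). The SEs of the 7 in limma, 1.50 to 3.27, lay above the median of 1.06 over all identifiers. The median difference was -2.29 over the 7 and 1.40 over all 792. The ranges of the genera did not overlap for 3 of the 7, against 84.5% of all. *APOEb* DN45_c1_g1 was higher in both *Comephorus* species, and *APOEb* DN4239_c0_g3 and *APOA2* were lower in both. Summed over its identifiers, *APOEb* differed by 1.60 (SE 1.93, adjusted p = 0.486 by limma).

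On the unnormalized counts, edgeR's quasi-likelihood test was possible for the 2 identifiers listed for both genera and called 0 of them, against 9.21% of 4755. Vitellogenin-2 differed by -7.76 on the log2 scale (unadjusted p = 0.0373, adjusted p = 0.141 by edgeR) and *APOEb* DN1401_c0_g1 by 3.02 (adjusted p = 0.273 by edgeR). DESeq2 called both (adjusted p = 0.00700 and 0.0412), along with 38.0% of all. Over the 8 alternatives the adjusted p of vitellogenin-2 ran from 0.00700 to 0.376 and that of DN1401_c0_g1 from 0.0412 to 0.729. These differences turned on single libraries. Without *B. nikolskii* the vitellogenin-2 difference became 0.50 on log2(CPM + 1) and 0.64 on counts, zona pellucida 4 became 1.77, and without *C. dybowski* the DN1401_c0_g1 difference became -0.32 and -0.70 on these scales. Without *B. multiradiatus*, limma called vitellogenin-2 (adjusted p = 0.0483, with a range of 0.0483 to 0.559 over its 10 alternatives). That fit has *B. nikolskii* as the only *Batrachocottus* sample.

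**Figure D4:**
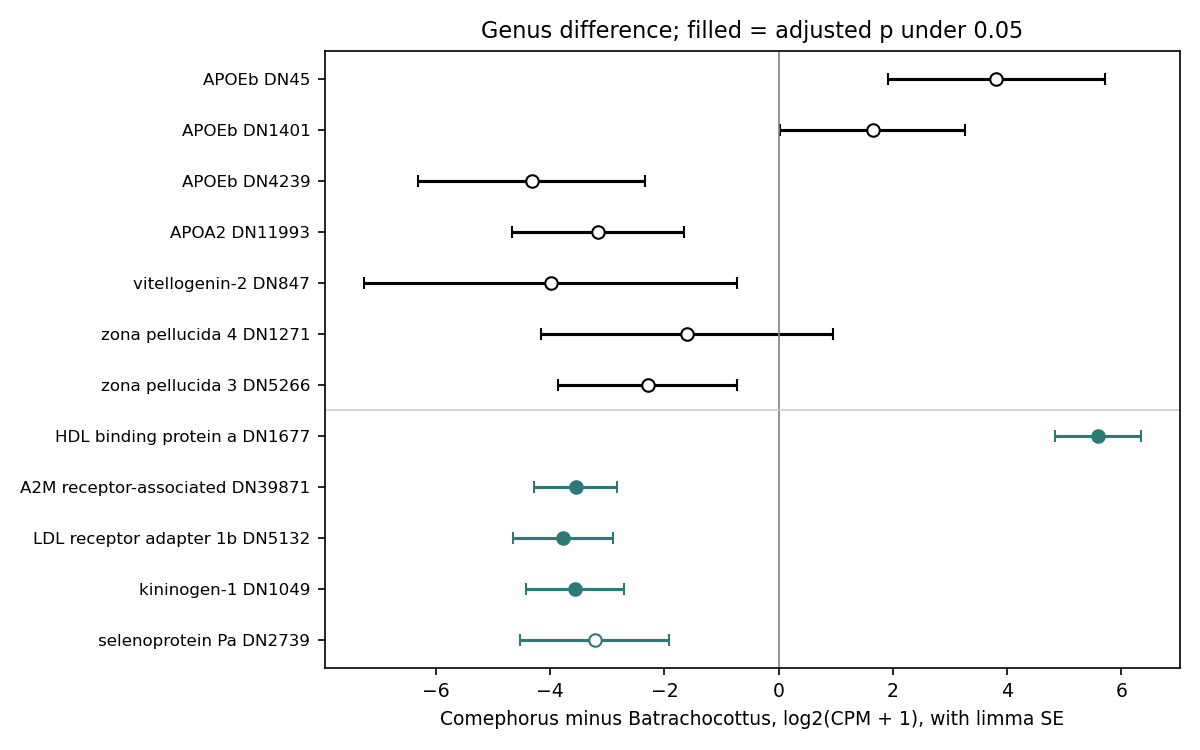
Difference of log2(CPM + 1), *Comephorus* minus *Batrachocottus*, with limma's standard error for the 7 identifiers (black, above the line) and for the 5 identifiers of the lipoprotein handling and liver plasma protein lists (green, below it), from 2 libraries in each genus. Filled points have an adjusted p under 0.05, which 0 of the 7 and 4 of the 5 reached, against 54.0% of all 792. The 5 each bear titles of several proteins.

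Identifiers with a title for lipoprotein handling numbered 3, each with further titles. All 3 passed limma's test, against 54.0% of all 792. In *Comephorus* 1 was higher and 2 were lower, against 30.1% and 24.0% of all. None was 4-fold apart within *Comephorus*, against 26.5% of all, or within *Batrachocottus*, against 30.2%. DN1677_c0_g1, titled high density lipoprotein binding protein a (an RNA-binding protein also known as vigilin), was at 404 and 350 CPM in *C. dybowski* and *C. baicalensis*, against 8.53 and 5.42 CPM in *B. nikolskii* and *B. multiradiatus* (difference 5.59, SE 0.75, adjusted p = 0.0155 by limma). DN39871_c0_g1, titled alpha-2-macroglobulin receptor-associated protein (a chaperone of receptors of the low-density lipoprotein family), was at 1.84 and 1.25 CPM in *Comephorus* against 26.7 and 30.5 CPM in *Batrachocottus*, in the same order (-3.55, SE 0.73, adjusted p = 0.0235 by limma). DN5132_c0_g1, titled low density lipoprotein receptor adapter protein 1b (which links that receptor to endocytosis), was at 4.86 and 2.45 CPM in *Comephorus* against 40.0 and 90.8 CPM in *Batrachocottus* (-3.77, SE 0.87, adjusted p = 0.0297 by limma). All 3 also carry titles of unrelated proteins (elongation factor 2, a complex I flavoprotein and histone methyltransferase SETDB2 among them), and their reads cannot be assigned to 1 title. These calls, like those of all 792 identifiers, fell to 0 when limma was run without *C. dybowski*, without *C. baicalensis* or without *B. nikolskii*.

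The liver plasma protein list was searched among the 657 titled identifiers of the 792 and matched 2. Its other proteins matched no title there. Identifiers without a title could not be searched. DN1049_c0_g1, titled kininogen-1 (the precursor of kinins, among 3 titles), had 1.95 CPM in *C. dybowski* and 1.16 CPM in *C. baicalensis*, against 44.8 CPM in *B. nikolskii* and 18.2 CPM in *B. multiradiatus* (-3.56, SE 0.86, adjusted p = 0.0325 by limma). DN2739_c0_g1, titled selenoprotein Pa (a plasma carrier of selenium, among 3 titles), was at 2.53, 11.8, 145 and 26.0 CPM in the same order (-3.22, SE 1.30, adjusted p = 0.103 by limma). The 2 summed to 4.5, 13.0, 189.8 and 44.3 CPM, highest in *B. nikolskii*, as were *APOA2*, vitellogenin-2 and both zona pellucida identifiers. Kininogen-1 was 2.46-fold and selenoprotein Pa 5.57-fold higher in *B. nikolskii* than in *B. multiradiatus*, against 14.6-fold or more for those 4. Whether RNA of liver or ovary had a part in the *B. nikolskii* values was not tested.

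Identifiers of the remaining lists, matched by title, followed several patterns. The 9 hemoglobin identifiers summed to 3382 CPM in *C. dybowski* and 3131 CPM in *C. baicalensis*, against 1096 CPM in *B. nikolskii* and 734 CPM in *B. multiradiatus*, and between the *Batrachocottus* species 1 of the 9 was at least 4-fold higher in *B. nikolskii* and 1 at least 4-fold lower, against 17.0% and 13.1% of all. DN49_c1_g1 (hemoglobin, alpha embryonic 5), the hemoglobin with the highest mean, was at 792 and 1152 CPM in *Comephorus* against 2.92 and 3.51 CPM in *Batrachocottus*. DN7542_c0_g2 (hemoglobin embryonic subunit alpha), with the largest genus difference, was at 742 and 977 CPM against 0 and 9.09 CPM in the same species order. Limma called 5 of the 9 higher in *Comephorus* and 1 lower, against 30.1% and 24.0% of all 792. Only 4 of the 9 bear a single title. Among the 5 called higher, DN49_c0_g1 (5 titles) and DN50_c0_g4 (2 titles) bear several. The 1 called lower, DN163_c0_g1 (3 titles), was at 7.68 and 4.22 CPM against 107 and 332 CPM. Hemoglobin beta-2 DN491_c0_g1 (2 titles) was also lower in *Comephorus*, at 13.5 and 64.9 CPM against 357 and 351 CPM. DN5443_c0_g1 was highest in *B. nikolskii*, at 579 CPM. The 7 keratin identifiers summed to 183, 589, 29.0 and 894 CPM in *C. dybowski* and *C. baicalensis*, then *B. nikolskii* and *B. multiradiatus*. This order of the species, with *C. baicalensis* and *B. multiradiatus* above their congeners, was also that within each genus of summed *APOEb*. It was not particular to keratins, and the share of all 792 identifiers with this order was not worked out. Of the 7 keratins, 2 were at least 4-fold higher in *C. baicalensis* than in its congener, against 14.1% of all 792. In *B. multiradiatus* 3 were at least 4-fold above its congener, against 13.1% of all, and 1 at least 4-fold below, against 17.0%. At any size of difference, *B. multiradiatus* led for 4 of the 7 and *B. nikolskii* for 3. In *Comephorus*, DN3261_c0_g2 (0.49), DN5979_c0_g1 (1.24) and DN9_c0_g8 (0.95) went against the sum on log2(CPM + 1), and the others with it. Most of the *B. multiradiatus* sum was keratin DN9_c0_g8, at 1.97, 0.540, 0.021 and 635 CPM in the species order of the sums. Most of the *C. baicalensis* sum was keratin 94 (DN1888_c0_g2), at 85.4, 362, 6.38 and 2.34 CPM. The part of skin in the *APOEb* values was not tested. The 5 identifiers of the fat cell and fatty acid carrier list summed to 357, 1347, 3429 and 1927 CPM. Of this, DN32_c0_g1 (sterol carrier protein 2 among 3 titles) made 7.48, 394, 3108 and 1498 CPM. The list holds carriers beside perilipin, so its sum is not a measure of fat cells. DN33667_c0_g1 (fatty acid binding protein 7 among 3 titles) was at 3.13, 0.348, 79.5 and 112 CPM. Within *Batrachocottus* the sum was higher in *B. nikolskii*. Yet 2 of the 5 were at least 4-fold higher in *B. multiradiatus*, against 13.1% of all, and 0 in *B. nikolskii*, against 17.0%. These 2 were perilipin-2 DN497_c0_g2 (2.2, 30.8, 0.488 and 70.5 CPM) and heart fatty acid-binding protein DN1992_c0_g1, among 3 titles (335, 914, 13.4 and 99.3 CPM). Both were also higher in *C. baicalensis* than in *C. dybowski*, the order within each genus of summed *APOEb*. The other identifiers of this list did not have that order in both genera. Of the skeletal muscle list, parvalbumin beta DN1094_c0_g4 was at 465 and 1.83 CPM in *Comephorus* against 41610 and 55408 CPM in *Batrachocottus*. DN383_c0_g2, titled parvalbumin beta and macrophage migration inhibitory factor, was at 23337 and 21170 CPM against 4.18 and 1.75 CPM.

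The patterns most like those of the 7 identifiers belonged mostly to proteins with other functions, as measured by the mean absolute difference of centred log2(CPM + 1) over the 4 libraries. *APOEb* DN45_c1_g1 was closest to yippee-like 5 (DN4118_c0_g1, 0.237) and elongation factor 1-beta (DN741_c0_g2, 0.288), a subunit of the factor that loads tRNA onto ribosomes. *APOEb* DN1401_c0_g1 was closest to calcium channel gamma-6 subunit (DN180_c0_g2, 0.252) and isocitrate dehydrogenase subunit alpha (DN4851_c0_g1, 0.376). *APOEb* DN4239_c0_g3 was closest to ribosomal protein S3 (DN5704_c0_g1, 0.150) and tubulin epsilon and delta complex protein 1 (DN5167_c0_g1, 0.347). For vitellogenin-2 the closest were ribosomal protein S26 (DN908_c2_g1, 0.332) and a ubiquitin-eL40 fusion protein (DN10642_c1_g3, 0.426). *APOA2* was closest to an identifier titled prosaposin and meteorin-like protein (DN2123_c0_g1, 0.178) and to one titled regulator of microtubule dynamics protein 3 and transmembrane protein 182 (DN4758_c0_g1, 0.263). Zona pellucida 4 was closest to kelch-like protein 41b (DN7011_c1_g4, 0.368) and to APOBEC-2b, which its title calls an editing enzyme (DN935_c1_g1, 0.461). Zona pellucida 3 was closest to an identifier titled sperm acrosome membrane-associated protein 4 and pancreatic progenitor cell differentiation and proliferation factor A (DN670_c0_g1, 0.097). Next to it was DN463_c0_g1 (0.246), which has 4 titles, among them beta-2-glycoprotein 1, the plasma protein also called apolipoprotein H. That identifier was at 11.2, 8.07, 236 and 18.7 CPM in *C. dybowski* and *C. baicalensis*, then *B. nikolskii* and *B. multiradiatus*, and was matched to its second name after its values were seen.

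For 8 of the neighbours' titles several identifiers bore the title, and the sums over a title lay close together across the species for 3 of them. Ribosomal protein S26 DN908_c2_g1 was at 5.71, 4.10, 3113 and 2.14 CPM in *C. dybowski* and *C. baicalensis*, then *B. nikolskii* and *B. multiradiatus*, while the 5 identifiers with that title summed to 4974, 5269, 3766 and 3391 CPM. Elongation factor 1-beta DN741_c0_g2 was at 9.98, 605, 3.87 and 3.42 CPM, and its 3 identifiers summed to 762, 691, 999.9 and 992 CPM. Kelch-like protein 41b DN7011_c1_g4 was at 2.34, 0.742, 86.6 and 0.461 CPM, and its 3 identifiers summed to 111, 120, 145 and 104 CPM. In contrast the 3 *APOEb* identifiers summed to values that ran from 4.31 to 163 CPM, and the sums of the other 5 titles were uneven too. They were 1614, 8.86, 755 and 232 CPM for ribosomal protein S3 (3 identifiers) and 931, 609, 5.59 and 37.05 CPM for calcium channel gamma-6 subunit (3 identifiers), in the same order. For APOBEC-2b (2 identifiers) they were 15.4, 25.2, 73.3 and 0.54 CPM. Transmembrane protein 182 (2 identifiers) summed to 56.7, 9.12, 131 and 11.95 CPM, and pancreatic progenitor cell differentiation and proliferation factor A (2 identifiers) to 64.5, 13.1, 109.7 and 6.12 CPM. For *APOA2*, vitellogenin-2 and both zona pellucida proteins no further identifier with the title was found among the 657 titled identifiers of the 792, and a sum over the title could not be formed. A single identifier with 1 high library thus stood beside an even sum for 3 of these 8 titles and beside an uneven one for 5, and what share the assembly has in the pattern of the 7 identifiers was not tested.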

How the data were processed

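Muscle libraries of 4 species (1 pool each) were analysed. The authors trimmed reads (Trimmomatic 0.36 per the labels), assembled each species with Trinity, clustered the joined assemblies by CD-HIT and used Salmon for read estimates. The estimated counts are whole numbers per Trinity gene as deposited, not normalized. The CPM values are those the authors made with edgeR 4.0.3 for 792 identifiers that they selected by species pair, scaled to adjusted library sizes of about 52881434 to 68019677 reads, read here from the ratio of both tables. The libraries were not stranded. Products of CPM and library size were whole (within 0.1) for only 19.3% to 23.5% of values, so the planned count test on reads recovered as whole numbers was not run, and rounded estimates were used as an alternative chosen after seeing the data, as was edgeR with the authors' library sizes.

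Protein titles came from the part of the study's annotation table that was read, which titled 657 identifiers, 336 of them with several proteins. The members, lists and tests were chosen with earlier results of these data known, and the pancreas pattern was narrowed after titles were seen. Named were all 7 members, the 2 titled identifiers most like each, every identifier of the lipoprotein, liver, egg and pancreas lists, and of the other lists the identifier with the highest mean and the one with the largest genus difference. A few others of the macrophage, hemoglobin, keratin and fat cell lists were named after their values were seen.

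The genus contrast was fitted with limma 3.58.1 on log2(CPM + 1) of 792 identifiers and with edgeR 4.0.16 (quasi-likelihood, TMM) on 4755 counts, two-sided, with Benjamini-Hochberg adjustment and a call under 0.05. DESeq2 1.42.0 was an alternative. Alternatives were pseudocounts of 0.1 and 10, filters (mean of 10 CPM, 100 counts), table totals, a trend, sums by title, unlisted identifiers set to 0 and leaving out each library. All ran in R 4.3.3 and Python 3.11.15. Only the main limma and edgeR fits were tested on simulated data. Nothing in the labels says that libraries of a genus are replicates beyond being different species, so p-values measure the spread between species. Median log2 differences over all listed identifiers under the authors' sizes and under table totals were 0.10 and 0.15 (*C. dybowski* minus *C. baicalensis*), 0.18 and 0.56 (*B. nikolskii* minus *B. multiradiatus*) and -0.02 and -0.18 (*Comephorus* minus *Batrachocottus*).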

Additional observations from a re-analysis of the deposited data

How the results depend on the processing

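With limma on normalized values, 0 of the 7 identifiers were called under both pseudocounts and the trend. Over all 792, calls were 403 with a pseudocount of 0.1, 379 with 10 and 422 with the trend. Of 5 features, 0 were called under the filter on the mean (without DN1401_c0_g1 and DN5266_c0_g1), against 425 of 762. Under sums by title 0 of 5 were called, against 386 of 734. Leaving out 1 library gave 0 to 1 (vitellogenin-2 without *B. multiradiatus*), and edgeR on recovered reads gave 1 (*APOEb* DN4239_c0_g3, adjusted p = 0.0495, range 0.0495 to 0.295). Over all 792, calls were 428 in the main analysis, 242 with edgeR, 316 without *B. multiradiatus* and 0 without any other single library. With edgeR on counts, 0 of 2 were called with the size factors of DESeq2, against 439 of 4755. With the authors' library sizes 0 of 2 were called, against 423 of 4755. DESeq2 called 2 of 2 (1808 of all, against 438). Setting unlisted identifiers to 0 gave 5 of 6 and 11668 of 15221, and zona pellucida 4 came out at 10.55 (adjusted p = 0.000867), although *B. nikolskii* held its highest level. Neither member passed the filter of 100 counts, so that alternative has no value. Leave-one-out ranges that changed sign were -0.32 to 3.62 (DN1401_c0_g1), -8.48 to 0.50 (vitellogenin-2) and -4.97 to 1.77 (zona pellucida 4) on log2(CPM + 1), and -0.70 to 4.41 and -8.76 to 0.64 on counts for DN1401_c0_g1 and vitellogenin-2. Within *Comephorus*, 4-fold differences numbered 5 of 7 with a pseudocount of 0.1, 1 of 7 with 10 and 1 of 5 with *APOEb* summed, against 2 of 7. Within *Batrachocottus* they numbered 4 or 5. For these alternatives the share of all identifiers at least 4-fold apart was not worked out. No paired analysis was possible because each library is the pool of a different species and the design has no pairs. A count of 0 allows up to 0.0441 to 0.0567 CPM (3 reads).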
